A study of Mus musculus with 28 samples.

Results

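The genes described here are 10 cytosolic chaperones, *Hspa4*, *Hspa4l*, *Hsph1*, *Hspa8*, *Hsp90aa1*, *Hsp90ab1*, *Hspa1a*, *Hspa1b*, *Dnajb1* and *Hspb1*. They were chosen by symbol, as major heat shock genes around *Hspa4*. The study singled out *Hspa4* from these same mice, so its difference here is not independent evidence. All 10 were listed in both count tables and passed the filter on low counts, among 16266 genes tested of 49477 shared by the tables. RNA came from amygdala micropunches of 28 adult female C57BL6/J mice, all individually housed and killed in the light phase. The 10 Water mice had no access to alcohol, the 9 Acute mice had a single access to 20% alcohol, and the 9 Chronic mice drank it every other day for a month. Mice came in 2 batches, with 4 Water, 4 Acute and 3 Chronic mice in the earlier one and 6, 5 and 6 in the later one. Intake was voluntary, so the dose differed between mice, and the punches held several amygdala nuclei and all their cell types. In such bulk tissue, fewer cells of a type and less RNA per cell cannot be told apart.

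Chaperones bind unfolded or aggregating proteins and help them fold, travel or be degraded. HSP70 proteins such as HSPA8 cycle between ATP and ADP states. J-domain proteins such as DNAJB1 deliver clients and start ATP hydrolysis, and HSP110 proteins (HSPA4, HSPA4L and HSPH1) are nucleotide exchange factors that release ADP. HSP90 proteins take over late folding steps of kinases and steroid receptors, and small heat shock proteins such as HSPB1 hold unfolded clients without ATP. Under stress the factor HSF1 binds heat shock elements in DNA and drives *Hspa1a*, *Hspa1b*, *Dnajb1* and others, whereas *Hspa8* and *Hsp90ab1* are expressed at high levels in unstressed neurons.

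Heat shock elements are runs of inverted GAA units, and the DNA before RefSeq starts of 4 genes is shown to let a reader see which of them carry the core. RefSeq promoter windows on GRCm38.p6 were found for 7 of the 10 genes (*Hspa4*, *Hspa4l*, *Hsph1*, *Hspa1a*, *Hspa1b*, *Dnajb1* and *Hspb1*). Each line gives the 250 bases before a RefSeq start, 5′ to 3′ on the minus strand, on which all 4 genes lie. For *Hsph1*, RefSeq lists a second start further along the gene, and the end of the printed stretch, its core included, lies inside the gene as GENCODE annotates it. Capitals mark a core of 2 inverted units, which is GAA, any 2 bases and TTC, or TTC, any 2 bases and GAA. Either form reads the same on both strands.
*Hspa4*, chr11:53300480-53300729: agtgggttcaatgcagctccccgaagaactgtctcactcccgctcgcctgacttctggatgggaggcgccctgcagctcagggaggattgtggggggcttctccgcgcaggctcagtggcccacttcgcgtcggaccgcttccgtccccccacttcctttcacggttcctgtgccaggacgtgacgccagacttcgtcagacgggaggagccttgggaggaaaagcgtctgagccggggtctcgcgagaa
*Hsph1*, chr5:149636337-149636586: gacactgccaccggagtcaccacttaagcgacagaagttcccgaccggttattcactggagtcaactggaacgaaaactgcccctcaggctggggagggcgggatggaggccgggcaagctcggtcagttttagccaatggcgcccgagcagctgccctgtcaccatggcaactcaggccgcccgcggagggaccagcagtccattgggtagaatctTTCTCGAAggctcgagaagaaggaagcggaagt
*Hspa1a*, chr17:34972157-34972406: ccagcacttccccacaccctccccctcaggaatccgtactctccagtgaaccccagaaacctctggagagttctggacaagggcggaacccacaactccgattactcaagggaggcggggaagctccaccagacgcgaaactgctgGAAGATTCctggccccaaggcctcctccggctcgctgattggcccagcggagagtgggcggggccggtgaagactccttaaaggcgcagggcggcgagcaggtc
*Hspa1b*, chr17:34959239-34959488: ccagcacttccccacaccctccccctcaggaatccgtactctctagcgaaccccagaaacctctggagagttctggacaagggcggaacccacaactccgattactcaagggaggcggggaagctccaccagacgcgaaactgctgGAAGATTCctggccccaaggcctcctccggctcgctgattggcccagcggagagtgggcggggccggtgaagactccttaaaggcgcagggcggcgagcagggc
The stretches before *Hspa1a* and *Hspa1b* were identical at 247 of 250 bases and held the same core at the same place. *Hsph1* held a core of the other orientation, and *Hspa4* held none. Over the full windows of 300 bases, which run past the start, a core was found for 4 of the 7 genes (*Hsph1*, *Hspa1a*, *Hspa1b* and *Hspb1*) and in 15.1% of all 32851 RefSeq windows. The longer form of 3 units (GAA, TTC, GAA or TTC, GAA, TTC, each 2 bases apart), which contains 2 overlapping cores, was searched on both strands. It was found for *Hsph1* alone among the 7, past its RefSeq starts, and in 0.603% of all windows. A match is a description of letters and was not tested for binding.

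The 10 genes covered a wide range of levels. Per kilobase of longest transcript, *Hspa8*, the constitutive HSP70, had a mean level over 28 mice of 670.3 ± 35.7 CPM per kb (CPM are counts scaled to library size; SD), and *Hsp90ab1*, the constitutive HSP90, had 635 ± 28.1 CPM per kb. These neighbours overlapped in their spread. *Hsp90aa1*, the stress-inducible HSP90, followed at 390.4 ± 16.5 CPM per kb. *Hsph1* had 67.5 ± 6.67 and *Hspa4* 51.8 ± 1.97 CPM per kb. *Dnajb1* at 19.2 ± 2.08 and *Hspa4l* at 18.2 ± 1.20 CPM per kb did not differ beyond their spread. *Hspb1* (5.48 ± 1.07), *Hspa1a* (3.82 ± 0.622) and *Hspa1b* (3.63 ± 0.743 CPM per kb) were lowest, and the last 2 lay within each other's spread.

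The genes also differed in how far mice spread around their batch and group means, in SD of log2 CPM (prior count 2). *Hsp90ab1* varied least, with an SD of 0.037, lower than for all but 0.105% of the genes tested. *Hspa4* was close, with an SD of 0.044 at percentile 0.443, against a median of 0.138 over all genes. *Hsp90aa1* (0.062), *Hspa8* (0.064), *Hspa4l* (0.094) and *Hsph1* (0.097) also lay below that median. *Dnajb1* (0.153), *Hspa1a* (0.182), *Hspa1b* (0.243) and *Hspb1* (0.275) lay above it. Part of the last values is counting error, since *Hspb1* had a mean of 105 counts per mouse, for which counting alone gives 9.76%, beside 1.42% for *Hspa4* at 4949 counts. The small spread of *Hspa4* means that a difference of a few percent was measurable for it and was not for *Hspb1*.

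**Figure D1:**
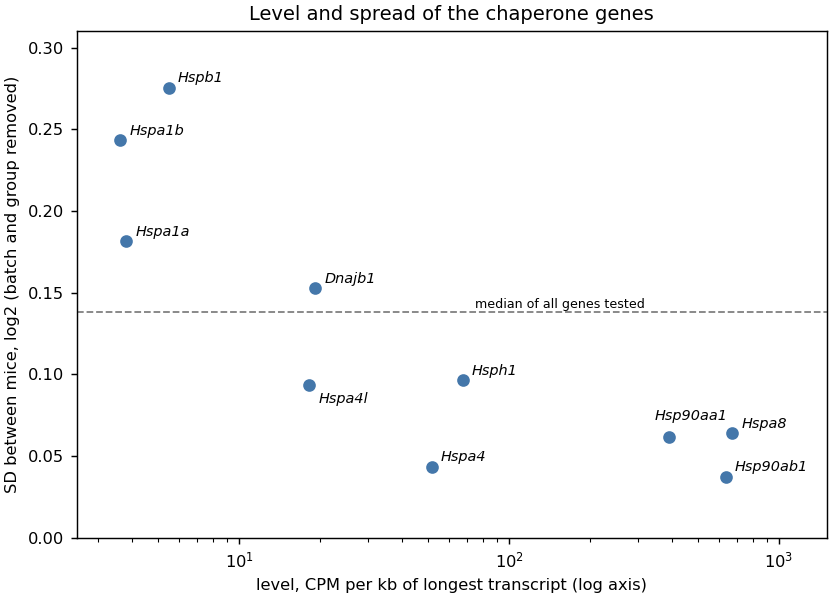
Mean level over 28 mice in CPM per kb of longest transcript (x axis, logarithmic) against the SD between mice in log2 units after batch and group means were removed (y axis), with 1 point per gene. *Hspa4* and *Hsp90ab1* lie far below the dashed median of all genes tested (0.138), and *Hspa1a*, *Hspa1b*, *Dnajb1* and *Hspb1* lie above it.

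Reads of near-identical genes limit 2 of the levels. *Hspa1a* (chr17:34969190-34972156) and *Hspa1b* (chr17:34956436-34959238) are single-exon neighbours on the minus strand of GRCm38, and 63.8% of the 31-base stretches of *Hspa1a* also occur in *Hspa1b*, so their counts are uncertain as a split and firmer as a sum. *Hspa1l* also holds 12.1% of the stretches of *Hspa1a* and 11.1% of those of *Hspa1b*. Its counts were 47.9% and 53.4% of theirs, so the sum is not free of shared reads either. *Hspa1a* is also overlapped on the opposite strand by *Gm20481*. Stretches of *Hspa8* (59.7%), *Hsp90aa1* (62.9%) and *Hspb1* (56.7%) occur in other genes, mostly pseudogenes. Their largest partners *Gm15459*, *Gm12346* and *Hsp25-ps1* had 0.034%, 0.0376% and 0.306% of the member's counts. *Hspa4* and *Hsph1* shared no such stretch with another gene.

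The comparison of Acute with Water mice asks what a single drinking session did. None of the 10 genes was called, where a call is an adjusted p under 0.05 in the quasi-likelihood fit of edgeR that includes batch, beside 0% of all 16266 genes (0 called). DESeq2 with batch, limma-voom, and ComBat-seq followed by DESeq2 also called 0 of the 10, beside 0.0553%, 0.0123% and 0.184% of all genes. DESeq2 gave no adjusted p to 6939 genes with batch and to 3475 after ComBat-seq, and such genes count as not called. At an unadjusted p under 0.05 there was 1 of the 10, *Hspa4*, which was lower, beside 9.52% of all genes (4.45% lower and 5.07% higher). Of the 10, 5 lay below 0, with a median log2 fold change of -0.0030 beside 0.0011 over all genes.

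*Hspa4* (ENSMUSG00000020361, chr11:53259814-53300457, minus strand) ranged from 4858 to 5322 normalised counts in Water mice (median 5111). In Acute mice it ranged from 4745 to 5182 (median 4864). The groups overlapped, and with batch means removed 8 of 9 Acute mice lay below the Water mean and 5 of 9 below the lowest Water mouse. The log2 fold change was -0.049 (SE 0.023, 95% interval -0.097 to -0.0023; edgeR p = 0.0406, adjusted p = 0.502). The within-batch difference of mean log2 CPM was -0.049 in both batches. Fits by edgeR of the first and the second batch alone gave -0.052 (p = 0.161) and -0.048 (p = 0.210).

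The remaining differences between Acute and Water mice had intervals that held 0. *Hspa4l* had a log2 fold change of -0.039 (95% interval -0.124 to 0.046) and *Hsph1* of -0.033 (-0.121 to 0.055). *Hspa8* (-0.011), *Hsp90aa1* (0.015) and *Hsp90ab1* (0.0049) lay near 0, and the interval for *Hsp90ab1* ran from -0.040 to 0.050, or from -2.75% to 3.54%. *Hspa1a* had 0.123 (-0.043 to 0.290), *Hspa1b* 0.053 (-0.163 to 0.270), *Dnajb1* 0.013 (-0.122 to 0.149) and *Hspb1* -0.016 (-0.269 to 0.237). These last 4 intervals were the widest.

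**Figure D2:**
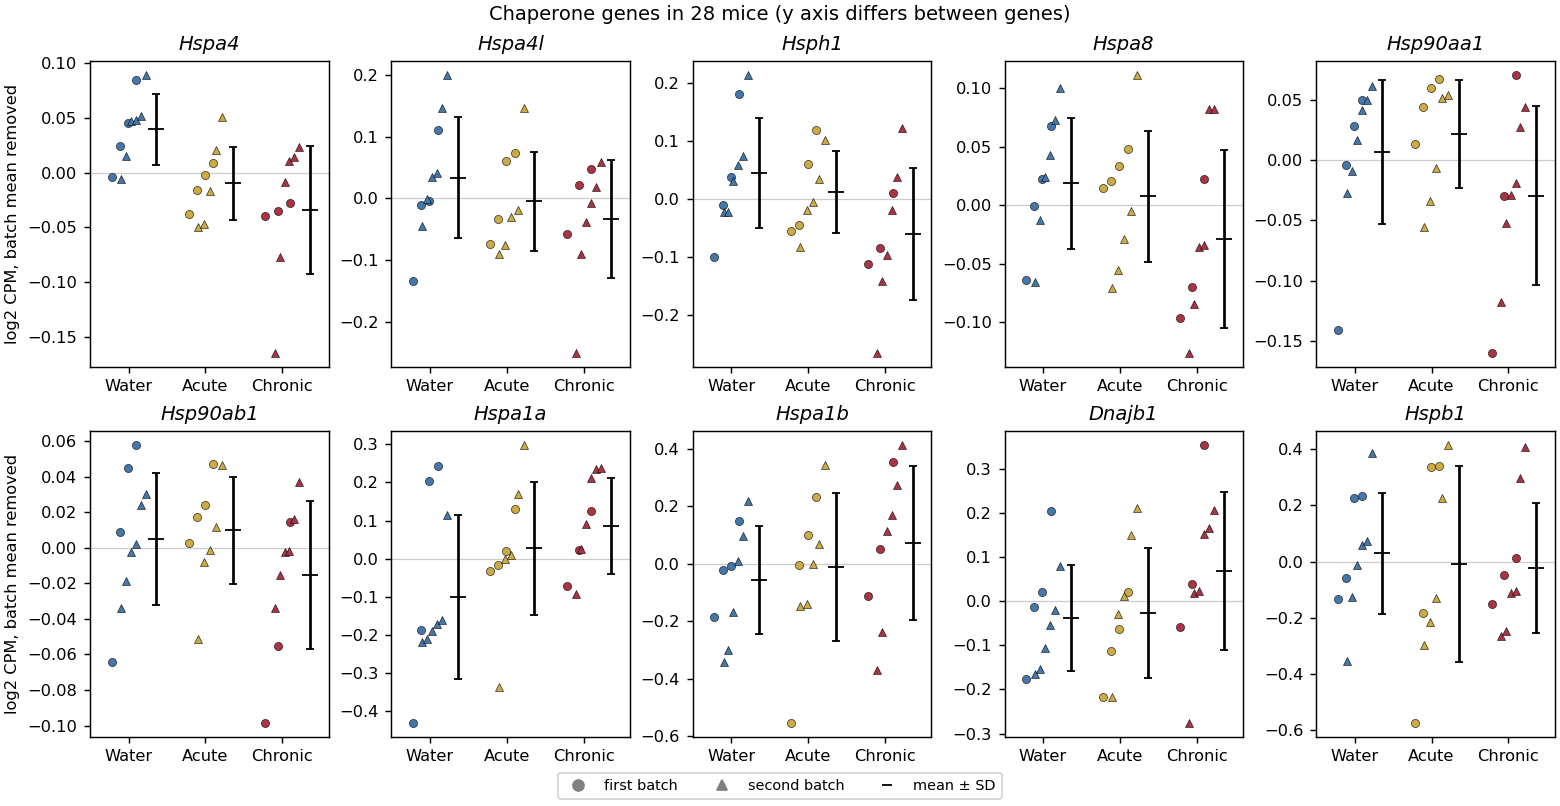
Log2 CPM with batch means removed (y axis, scaled for each gene) of the 10 chaperone genes in each of 28 mice, by drinking group (x axis). Circles are mice of the first batch and triangles of the second, and bars give the mean ± SD. The groups overlap for every gene, and all 9 Chronic mice lie below the Water mean for *Hspa4* and above it for *Hspa1a*.

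The comparison of Chronic with Water mice asks what a month of drinking, its last session included, did. The study left alcohol in the cages of Acute and Chronic mice until anesthesia. The month and the last session therefore cannot be told apart in this comparison. None of the 10 genes was called by edgeR, beside 0.0184% of all genes (3 called). At an unadjusted p under 0.05 there were 3 of the 10, *Hspa4* and *Hsph1* lower and *Hspa1a* higher, beside 10.5% of all genes (5.65% lower and 4.81% higher). DESeq2 with batch and limma-voom called 0 of the 10, beside 0.234% and 0.0123% of all genes. ComBat-seq followed by DESeq2 called 1, *Hspa4* (log2 fold change -0.071, adjusted p = 0.0425), among 88 genes or 0.54%. DESeq2 gave no adjusted p to 7570 of 16266 genes with batch and to 7897 of 16293 after ComBat-seq. Such genes count as not called, also where a chaperone is among them. Both DESeq2 shares would be higher over genes with an adjusted p alone. Of the 10, 7 lay below 0, beside 49% of all genes, with a median of -0.041 beside 0.0022. The genes below 0 were the 3 HSP110 genes, *Hspa8*, both HSP90 genes and *Hspb1*, and those above 0 were *Hspa1a*, *Hspa1b* and *Dnajb1*.

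Among the HSP110 exchange factors, *Hspa4* ranged from 4463 to 5085 normalised counts in Chronic mice (median 4779). With batch means removed, all 9 Chronic mice lay below the Water mean and 6 of 9 below the lowest Water mouse, although the groups overlapped. In the first batch the 3 Chronic mice had 4738, 4755 and 4779 counts, below all 4 Water mice (4858 to 5166). In the second batch the 6 Chronic mice ranged from 4463 to 5085 and the 6 Water mice from 4983 to 5322. The log2 fold change was -0.073 (SE 0.023, 95% interval -0.120 to -0.026; edgeR p = 0.00361, adjusted p = 0.241), a mean level of 0.951 times that of Water. Its p-value ranked 243 among the 16266 genes. The within-batch differences were -0.072 and -0.075 in log2 units. Without Chronic mouse 1 of the second batch, which had the lowest level, it was -0.058 (edgeR p = 0.00903, adjusted p = 0.358).

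*Hsph1* (chr5:149614287-149636376, minus strand), which encodes HSP105, ranged from 5685 to 8122 normalised counts in Water mice (median 6902). In Chronic mice it ranged from 5632 to 7627 (median 6352). The groups overlapped, with 8 of 9 Chronic mice below the Water mean once batch means were removed. The log2 fold change was -0.104 (SE 0.043, 95% interval -0.193 to -0.016; edgeR p = 0.0222, adjusted p = 0.377), and it was -0.080 without Chronic mouse 1 of the second batch (p = 0.0583, adjusted p = 0.573). The p was 0.0581 by edgeR without Water mouse 1, which had the highest level. *Hspa4l* (chr3:40744495-40796103, plus strand), an HSP110 relative, ranged from 3323 to 4041 normalised counts in Water and from 2956 to 3772 in Chronic mice. Its log2 fold change was -0.067 (SE 0.042, 95% interval -0.153 to 0.018), and its within-batch differences were 0.014 and -0.114. Without Chronic mouse 1 it was -0.042 (edgeR p = 0.285, adjusted p = 0.796).

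Among the abundant HSP70 and HSP90 genes, *Hspa8* (chr9:40800984-40810087, plus strand) had a median of 44322 normalised counts in Water mice (40405 to 47995) and 42907 in Chronic mice (39514 to 47403). Its log2 fold change was -0.047 (SE 0.031, 95% interval -0.111 to 0.017). *Hsp90aa1* (chr12:110690605-110702728, minus strand) had -0.036 (-0.098 to 0.026). *Hsp90ab1* (chr17:45567775-45573271, minus strand) had -0.020 (-0.066 to 0.025), with -0.058 and -0.00017 in the earlier and the later batch. The groups overlapped for all 3, and none of the 3 intervals held a decrease of more than 7.40%. Without 1 mouse *Hsp90aa1* ranged from -0.051 to -0.017 and *Hsp90ab1* from -0.027 to -0.0080.

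*Hspa1a*, *Hspa1b* and *Dnajb1* lay above 0, whereas *Hsp90aa1*, *Hsph1* and *Hspb1*, which are also heat-inducible, lay below it. *Hspa1a*, an inducible HSP70, ranged from 151 to 271 normalised counts in Water mice (median 220). In Chronic mice it ranged from 195 to 295 (median 255). All 9 Chronic mice lay above the Water mean once batch means were removed, and on that scale none lay above the highest Water mouse. The log2 fold change was 0.181 (SE 0.081, 95% interval 0.014 to 0.347; edgeR p = 0.0346, adjusted p = 0.434), and the within-batch differences were 0.067 and 0.258. Its unadjusted p stayed under 0.05 in 18 of 28 fits without 1 mouse and reached 0.0696 in the others. *Hspa1b*, its near-identical neighbour, ranged from 156 to 266 in Water and from 164 to 304 in Chronic mice, with a log2 fold change of 0.14 (SE 0.105, 95% interval -0.075 to 0.356). The sum of both, the firmer quantity, was 419 ± 55.5 normalised counts in 10 Water mice and 477 ± 83.4 in 9 Chronic mice, with a log2 fold change of 0.161 (SE 0.075; edgeR p = 0.0415, adjusted p = 0.455). *Dnajb1* (chr8:83608193-83612653, plus strand), the J-domain partner of the inducible HSP70, had medians of 1150 in Water and 1221 in Chronic mice and a log2 fold change of 0.114 (SE 0.066, 95% interval -0.021 to 0.249). Without 1 mouse the fold change of *Dnajb1* ranged from 0.070 to 0.152, with an unadjusted edgeR p under 0.05 in 2 of 28 fits.

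*Hspb1* (chr5:135887919-135889563, plus strand), the small heat shock protein HSP25, ranged from 84.5 to 143 normalised counts in Water mice and from 86.5 to 145 in Chronic mice. The log2 fold change was -0.052 (SE 0.124, 95% interval -0.305 to 0.202), an interval from -19.1% to 15% in level. The groups overlapped over nearly their whole ranges.

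**Figure D3:**
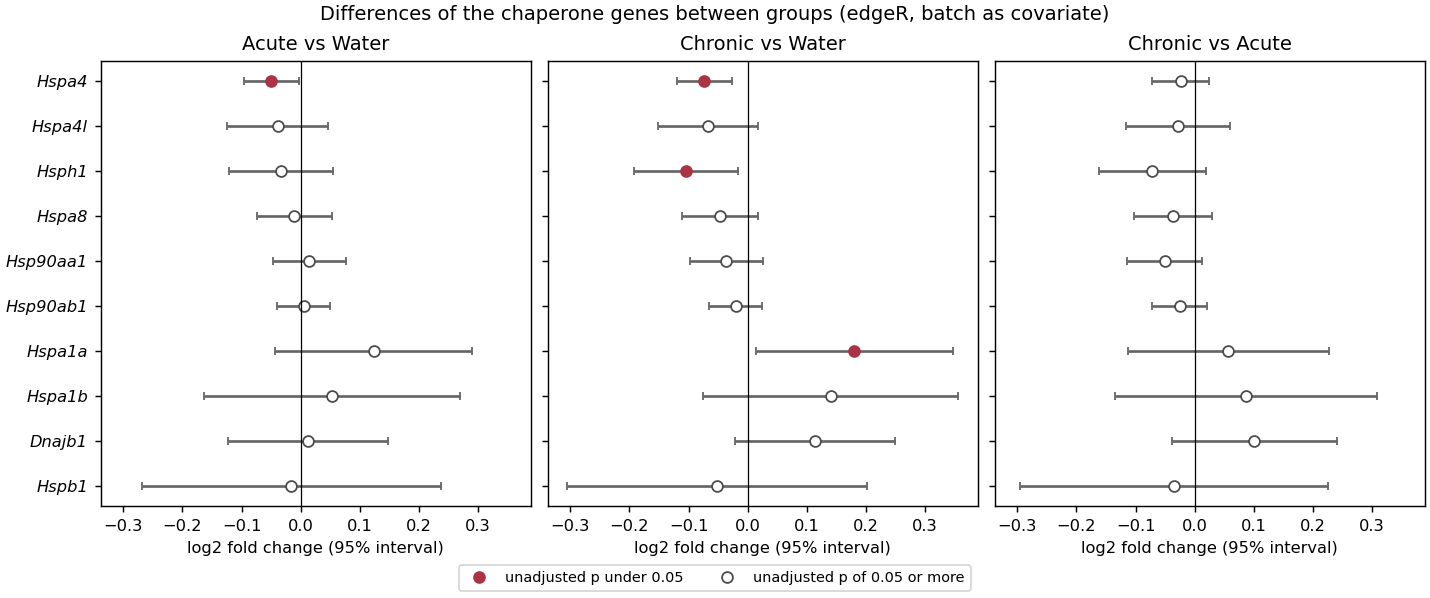
Log2 fold change (x axis) of each gene with its 95% interval in the 3 comparisons, fitted by edgeR over all 28 mice with batch as a covariate. Filled points have an unadjusted p under 0.05 and none has an adjusted p under 0.05. In Chronic against Water mice *Hspa1a*, *Hspa1b* and *Dnajb1* lie to the right of 0 and the other 7 genes to the left.

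The levels of 4 of the 10 genes moved with a measure of GC content from mouse to mouse (*Hspa4*, *Hspa4l*, *Hspa1a* and *Dnajb1*), with r of at least 0.56 in size, which 8.40% of all genes reached. This cut is the r of *Hspa1a*, the lowest of the 4, so that all 4 reach it by construction. The GC content of the longest transcript was 58.9% for *Hspa1a*, 58.1% for *Hspa1b* and 52.7% for *Dnajb1*, and between 39.5% (*Hspa4l*) and 51% (*Hsp90ab1*) for the 6 HSP110, HSP90 and *Hspa8* genes. *Hspb1* went against this order, with the highest GC content (61.7%), a log2 fold change of -0.052 and r = 0.013 with the measure described next. A GC measure of each mouse, defined after the values were seen, was the mean log2 CPM of the 3254 genes of at least 55.4% GC minus that of the 3254 genes of at most 43.6%, with batch means removed. It ranged from -0.179 to 0.067 in Water mice (median -0.037), from -0.033 to 0.084 in Acute mice (median -0.0071) and from -0.034 to 0.119 in Chronic mice (median 0.041). The groups overlapped. Chronic mice were higher than Water mice by 0.089 on the log2 scale (2-sided exact permutation p = 0.00714, adjusted p = 0.0214 over 3 comparisons), and Acute mice by 0.047 (exact permutation p = 0.0843, adjusted p = 0.0868).

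Across the 28 mice *Hspa4* correlated with this measure with r = -0.58 (permutation p = 0.00263, adjusted p = 0.00657 over 10 genes; Spearman's rho = -0.51, p = 0.00622). Within the batches r was -0.17 and -0.73, and it was -0.50 without the 2 mice farthest from the median. *Hspa4l* had r = -0.67 (permutation p = 0.00019, adjusted p = 0.0019; rho = -0.62, p = 0.00087), with -0.59 and -0.70 within batches and -0.58 without the 2 mice. *Dnajb1* had r = 0.60 (permutation p = 0.00091, adjusted p = 0.00455; rho = 0.53, p = 0.0045), with 0.73 and 0.53 within batches and 0.50 without the 2 mice. *Hspa1a* had r = 0.56 (permutation p = 0.00212, adjusted p = 0.00657; rho = 0.55, p = 0.00329), with 0.56 and 0.56 within batches and 0.57 without the 2 mice. The other 6 genes, *Hspb1* among them, had r between -0.43 and 0.34, and none of them passed adjustment. *Hspa4l*, *Hspa1a*, *Hspa1b* and *Hspb1* are themselves among the genes that make up the measure. Of the 6 chaperones outside it, 2 passed (*Hspa4* and *Dnajb1*), beside 5.83% of the 9758 genes outside it that reached the same r.

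With offsets in edgeR for the GC content and length trend of every library, *Hspa4* in Chronic against Water mice was -0.044 (p = 0.067, adjusted p = 0.834), *Hsph1* was -0.078 (p = 0.104) and *Hspa1a* was 0.132 (p = 0.102). None of the 10 genes then had an unadjusted p under 0.05 in either comparison with Water. *Hspa4l* moved from -0.067 to 0.018, and *Hspa4* in Acute against Water mice from -0.049 to -0.030. *Hsp90ab1* in Chronic against Water mice moved away from 0, from -0.020 to -0.041, as did *Hspb1*, from -0.052 to -0.132. The part of GC content in the differences was not tested further.

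**Figure D4:**
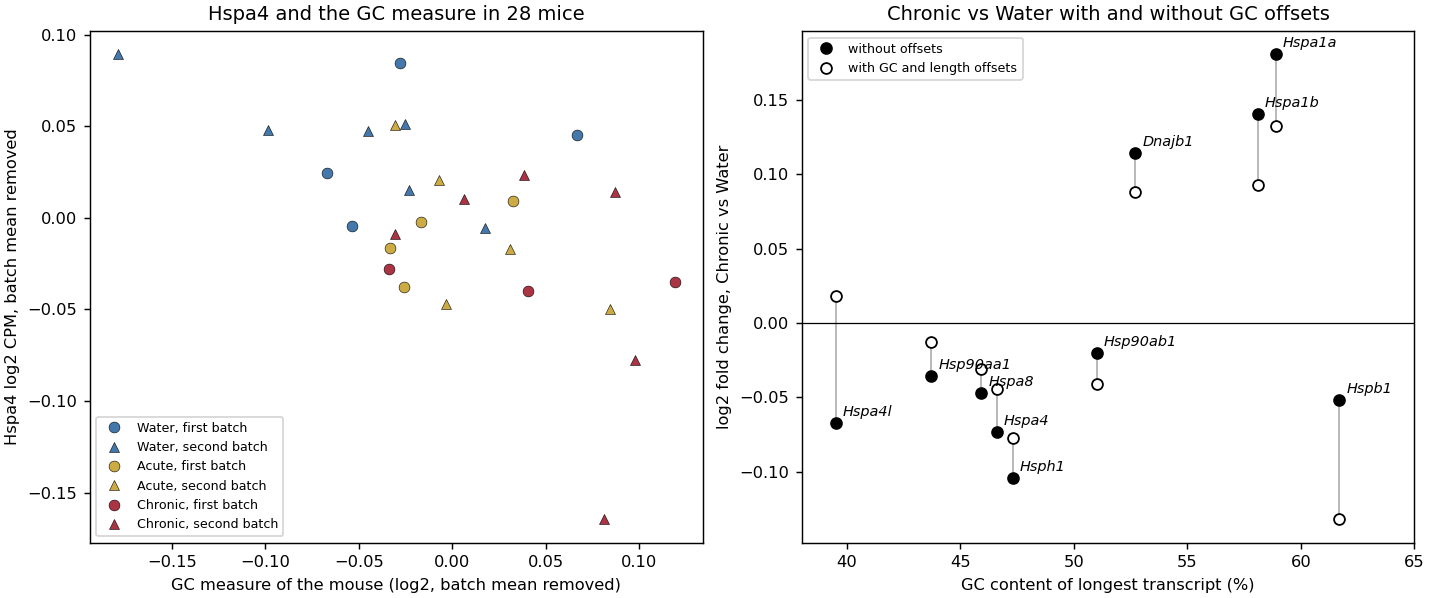
Left, log2 CPM of *Hspa4* with batch means removed (y axis) against the GC measure of the mouse (x axis) in 28 mice, coloured by group. Right, log2 fold change between Chronic and Water mice (y axis) against the GC content of the longest transcript (x axis), without (filled) and with (open) the GC and length offsets. The offsets move *Hspa4* from -0.073 to -0.044 and *Hspa4l* from -0.067 to 0.018.

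Chronic and Acute mice gave no call among the 10 genes. None passed in edgeR, beside 0% of all genes, and 0 of the 10 had an unadjusted p under 0.05, beside 4.44% of all genes (2.5% lower and 1.95% higher). DESeq2, limma-voom and ComBat-seq followed by DESeq2 also called 0 of the 10, each beside 0% of all genes. *Hspa4* had a log2 fold change of -0.024 (95% interval -0.072 to 0.025) and *Hsph1* of -0.071 (-0.162 to 0.019). Without Chronic mouse 1 of the second batch these were -0.0085 and -0.048. *Dnajb1* had 0.101 (-0.038 to 0.240), and the other 7 lay between -0.050 and 0.087. Both comparisons with Water share the Water mice, so that their values stand side by side only as *Hspa4* -0.049 and -0.073, *Hsph1* -0.033 and -0.104, and *Hspa1a* 0.123 and 0.181 in Acute and Chronic mice.

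The 2 batches were also compared in their differences. A batch by group interaction was called by edgeR for 0 of the 10 genes in Acute mice, beside 0% of all genes, and for 0 in Chronic mice, beside 0.00615%, and 0 of the 10 had an unadjusted p under 0.05 in either, beside 4.13% and 6.15% of all genes. For *Hspa4* the second batch's difference minus the first's was 0.00062 (SE 0.048) in Acute and -0.0014 (SE 0.050) in Chronic mice. The lowest p of these 20 interactions belonged to *Dnajb1* in Acute mice, -0.102 in the earlier batch and 0.096 in the later (interaction 0.208, SE 0.132, edgeR p = 0.127, adjusted p = 0.999). The largest in size was *Hspa1a* in Chronic mice (0.219, SE 0.171, edgeR p = 0.211, adjusted p = 0.866).

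Some pairs of chaperones varied together from mouse to mouse. With batch means removed, 12 of 45 pairs correlated across the 28 mice after adjustment (2-sided permutation within batches, 100000 resamples, adjusted over 45 pairs), all with positive r, and 10 of the 12 had the same sign in both batches. Libraries, depth and normalization are shared by both genes of a pair. The lowest of these 12 values was r = 0.47, a level that 4.12% of all 68708503 pairs of 11723 genes reached, and 77.8% of the 45 pairs had a positive r, beside 50.4% of all pairs. This background was computed after the values were seen, and the 45 pairs share only 10 genes. The closest pair was *Hsph1* and *Hspa8*, an exchange factor and the HSP70 it serves, with r = 0.79 (permutation p = 1e-05, the smallest that these resamples can give, adjusted p = 0.00045; rho = 0.80, p = 1e-05). Within the batches r was 0.55 and 0.88, and it was 0.71 without the 2 mice farthest from the median of *Hsph1*. Among the 15 pairs of HSP110, HSP90 and *Hspa8* genes, 9 were past the threshold, with a median r of 0.50. Of the 3 pairs of *Hspa1a*, *Hspa1b* and *Dnajb1*, 2 were, and 0 of the 18 pairs between these 2 groups were, with a median r of 0.031. These values keep the differences between drinking groups. With group means removed as well, 6 of the 15 pairs, 1 of the 3 and 1 of the 18 were past the threshold, with median r of 0.49, 0.50 and 0.20. The 2 sets of genes were chosen after the values were seen.

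In the HSP90 family, *Hsp90aa1* and *Hsp90ab1* had r = 0.67 (permutation p = 0.00095, adjusted p = 0.00757; rho = 0.52, p = 0.00752), with 0.88 and 0.26 within the batches and 0.42 without the 2 farthest mice. *Hspa8* correlated with *Hsp90ab1* with r = 0.64 (permutation p = 9e-05, adjusted p = 0.00202; rho = 0.65, p = 0.00016; within batches 0.95 and 0.50; 0.71 without the 2 mice). *Hspa1a* and *Dnajb1* had r = 0.61 (permutation p = 0.00097, adjusted p = 0.00757; rho = 0.54, p = 0.00378), with 0.43 and 0.73 within the batches and 0.53 without the 2 mice. *Hspa1a* and *Hspa1b*, which share reads, reached only r = 0.40 (permutation p = 0.0384, adjusted p = 0.102; rho = 0.47, p = 0.0147; within batches 0.14 and 0.56; 0.43 without the 2 mice).

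For *Hspa4* itself, r was 0.61 with *Hsph1* (permutation p = 0.00133, adjusted p = 0.00855; rho = 0.47, p = 0.0138), with 0.37 and 0.70 within the batches and 0.42 without the 2 mice farthest from its median. With *Hspa4l* it was 0.54 (permutation p = 0.00696, adjusted p = 0.0285; rho = 0.35, p = 0.0712), with -0.13 and 0.72 within the batches and 0.15 without the 2 mice, so that this relation rested on those mice and held in the second batch alone. With *Hsp90aa1* it was 0.48 (permutation p = 0.00464, adjusted p = 0.0232; rho = 0.50, p = 0.00657; within batches 0.25 and 0.72; 0.46 without the 2 mice). For rho, the adjusted permutation p of *Hspa4* was 0.060 with *Hsph1*, 0.177 with *Hspa4l* and 0.0476 with *Hsp90aa1*. It was also 0.060 for *Hsph1* with *Hsp90aa1*, so not every pair past the threshold by Pearson r passed on ranks. Leaving out Chronic mouse 1 of the second batch, which was low in all 3 HSP110 genes, reduced the 12 pairs to 6, and no pair with *Hspa4* or *Hspa4l* was among them. When each mouse's GC and length trend was removed, an alternative added after the values were seen, 17 pairs passed, 13 of them among the 15 pairs of HSP110, HSP90 and *Hspa8* genes, 2 among the pairs of *Hspa1a*, *Hspa1b* and *Dnajb1* and 2 between these groups. The median r was then 0.64 among the first 15 pairs and 0.23 between the groups.

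**Figure D5:**
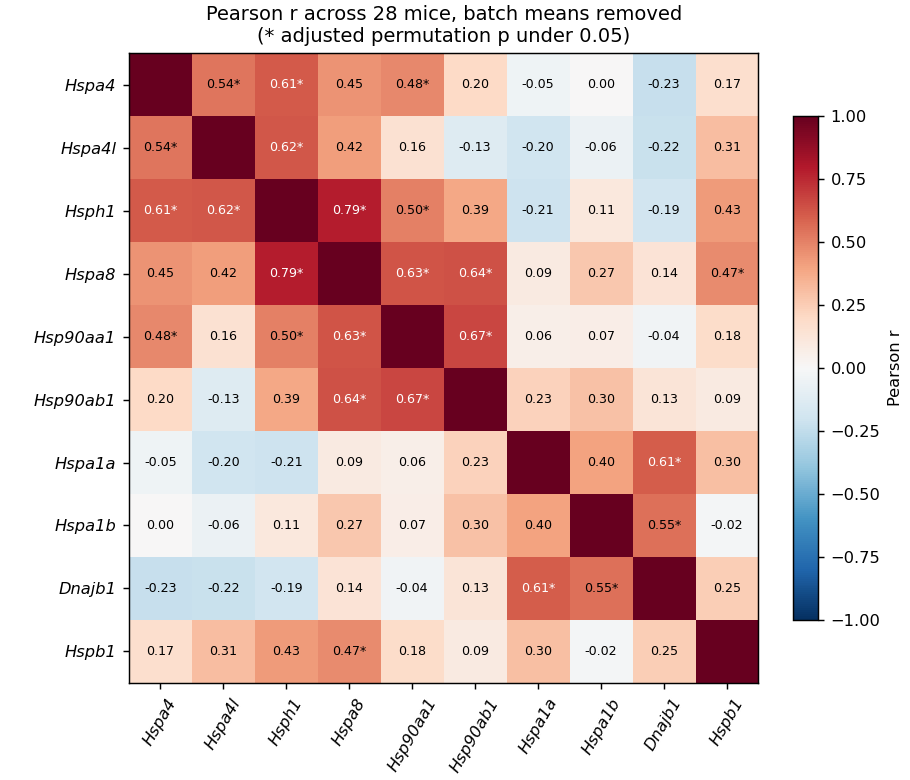
Pearson r across 28 mice of log2 CPM with batch means removed, for each pair of the 10 genes (rows and columns). Stars mark the 12 pairs with an adjusted permutation p under 0.05. The highest value is *Hsph1* with *Hspa8* (0.79), *Hspa4* has stars with *Hspa4l*, *Hsph1* and *Hsp90aa1*, and *Dnajb1* has them with *Hspa1a* and *Hspa1b*.

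The search for like patterns covered 11723 genes whose mean count reached 100. Those most like *Hspa4* across the 28 mice were *Fam117b* (r = 0.80), *Wasl*, *Tmx3*, *Kpnb1* and *Ipo7* (r = 0.77). *Wasl* encodes an actin regulator, *Tmx3* a protein of the endoplasmic reticulum, and *Kpnb1* and *Ipo7* encode importins. The genes most like *Hspa1b* were *Ptprs* (r = 0.81), *Mras*, *Clstn1*, *Rapgef1* and *Rap1gap2* (r = 0.74). *Ptprs* encodes a receptor phosphatase, *Mras* a small GTPase, and *Rapgef1* and *Rap1gap2* encode regulators of such GTPases. No other chaperone of the 10 was among either set. These are descriptions of patterns, chosen as the highest of all genes, and carry no test.

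The wider chaperone network was read in 82 further genes in 9 lists, of which 71 were tested, 5 fell under the filter and 6 are not analysed here. None was called in any comparison by edgeR, beside 0%, 0.0184% and 0% of all genes. DESeq2, limma-voom and ComBat-seq followed by DESeq2 called none either. Beside this stood at most 0.184% of all genes in Acute mice, 0.54% in Chronic mice and 0% between them. Genes to which DESeq2 gave no adjusted p count as not called. At an unadjusted p under 0.05 there were 10 of 71 in Acute mice, 8 higher and 2 lower, beside 9.52% of all genes, and 8 in Chronic mice, 7 lower and 1 higher, beside 10.5%. The median log2 fold changes were 0.019 and 0.0010, beside 0.0011 and 0.0022 over all genes.

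Among J-domain and exchange partners were the lowest p-values of the network. *Dnajc13*, an endosomal J-domain protein, had 1431 ± 122 normalised counts in 10 Water mice, 1303 ± 93.3 in 9 Acute mice and 1319 ± 98.2 in 9 Chronic mice, with log2 fold changes of -0.129 (SE 0.042, adjusted p = 0.407 by edgeR) and -0.125 (SE 0.042, adjusted p = 0.272). *Dnajc27* had 0.082 in Acute mice and *Dnajb14* -0.066 in Chronic mice. *Bag5*, an HSP70 exchange factor, had means of 679 ± 33.6, 733 ± 33.9 and 680 ± 34.1 in the Water, Acute and Chronic groups, a log2 fold change of 0.109 in Acute (SE 0.035, adjusted p = 0.403 by edgeR) and 0.0033 in Chronic mice. *Bag4* had -0.070 in Acute mice. *St13*, which encodes the HSP70-interacting protein HIP, had -0.063 and *Hspbp1* 0.068 in Chronic mice. Of the HSP90 co-chaperones *Sugt1* had -0.077 and *Ahsa1*, the ATPase activator, -0.066 in Chronic mice (adjusted p = 0.281 and 0.458 by edgeR), while in Acute mice *Cdc37*, the kinase adaptor, had 0.059 and *Sugt1* -0.041.

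Chaperonins and organelle chaperones had small differences. In the TRiC/CCT complex, which folds actin and tubulin, 7 of 8 genes lay above 0 in Acute and 4 of 8 in Chronic mice. The smallest p belonged to *Cct3* (0.079) and *Cct2* (0.061) in Acute mice, and to *Cct8* (-0.044) and *Cct3* (0.038) in Chronic mice. Of the prefoldin genes, 5 of 5 lay above 0 in Acute mice, with *Pfdn4* at 0.118 and *Pfdn2* at 0.078, and 4 of 5 in Chronic mice, with *Pfdn4* at 0.069 and *Pfdn2* at 0.051. Beside these counts, 49.4% of all genes lay below 0 in Acute and 49% in Chronic mice. *Hspd1*, the mitochondrial HSP60, had -0.065 and *Hspa5*, the HSP70 of the endoplasmic reticulum, 0.105 in Chronic mice, and in Acute mice *Hyou1* had 0.044 and *Hspa13* 0.023. Among cytosolic HSP70 relatives, *Hspa14* had 0.041 in Acute and 0.043 in Chronic mice, *Hspa12b* -0.028 in Acute and *Hspa2* 0.076 in Chronic mice. The small heat shock proteins *Cryab* (0.033) and *Hspb6* (0.054) in Acute mice and *Hspb6* (0.141) and *Hspb11* (-0.108) in Chronic mice had intervals that held 0.

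*Hsf1* and *Hsf2* had intervals that held 0 in both comparisons with Water. *Hsf1*, the master factor of the response, had means of 865 ± 54.1, 853 ± 84.8 and 872 ± 54.5 normalised counts in the Water, Acute and Chronic groups, with log2 fold changes of -0.020 (SE 0.049) and 0.0080 (SE 0.049). *Hsf2* had 558 ± 57.2, 548 ± 53.7 and 553 ± 34.9, with -0.034 (SE 0.040) and 0.0010 (SE 0.040). *Hsf4* had 0.13 in Chronic mice (SE 0.062, 95% interval 0.0025 to 0.257, unadjusted p = 0.0459 and adjusted p = 0.470 by edgeR), and *Hsbp1*, a binding partner of HSF1, had 0.032.

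No marker score of the cells a punch can hold passed adjustment. Scores over 10 lists, compared in 3 ways by 2-sided exact permutation within batches, gave 0 of 30 adjusted p-values under 0.05, and 2 of 30 unadjusted ones. Acute mice exceeded Water mice in the neuron score by 0.048 (exact permutation p = 0.0477, adjusted p = 0.716). The striatum score of Chronic mice minus that of Acute mice was -0.413 (exact permutation p = 0.026, adjusted p = 0.716). Chronic minus Water differences were -0.304 for choroid plexus and ependyma, -0.211 for striatum, 0.051 for oligodendrocytes, -0.035 for immediate early genes, 0.030 for neurons and 0.024 for OPC, and between -0.0085 and 0.012 for the other 4 lists, with the groups overlapping. Choroid plexus and ependyma markers spread most, from -2.66 to 2.6 around their batch means.

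Of 100 relations between the 10 genes and the 10 scores, tested after the values were seen, 3 passed adjustment, with r of at least 0.57 in size. That r is the lowest of the 3. Over all genes 4.27% of such relations reached it, so that the count of 3 is no result about the chaperones. For the immediate early gene score it was 2 of 10 chaperones beside 2.55% of all genes, and for the pericyte and smooth muscle score 1 of 10 beside 4.72%. *Dnajb1* correlated with the immediate early gene score with r = 0.60 (permutation p = 0.00128, adjusted p = 0.0483; rho = 0.53, p = 0.00511), with 0.60 in both batches and 0.45 without the 2 mice farthest from the median of the score. *Hspa1b* correlated with the same score with r = 0.59 (permutation p = 0.00144, adjusted p = 0.0483; rho = 0.57, p = 0.00225), with 0.76 and 0.48 within the batches and 0.42 without the 2 mice. *Hspa1b* also had r = -0.57 with the pericyte and smooth muscle score (permutation p = 0.00145, adjusted p = 0.0483; rho = -0.50, p = 0.00723), with -0.73 and -0.46 within the batches and -0.45 without the 2 mice.

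Other relations missed adjustment. *Hspa4l* had r = 0.52 with the OPC score (permutation p = 0.00256, adjusted p = 0.064; rho = 0.56, p = 0.0027; within batches 0.45 and 0.65; 0.59 without the 2 mice). *Hspa1a* had r = -0.54 with the striatum score (permutation p = 0.00404, adjusted p = 0.0808; rho = -0.55, p = 0.00365; within batches -0.74 and -0.38; -0.45 without the 2 mice). *Hsph1* had r = -0.53 with the choroid plexus and ependyma score (permutation p = 0.005, adjusted p = 0.0833; rho = -0.50, p = 0.00757; within batches -0.70 and -0.50; -0.51 without the 2 mice). *Hsp90ab1* had r = 0.56 with the neuron score (permutation p = 0.00668, adjusted p = 0.0954; rho = 0.58, p = 0.00262; within batches 0.67 and 0.36; 0.43 without the 2 mice). The part of cell composition in the group differences was not tested.

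Total counts ran from 20004380 to 22569562 per mouse. The medians for Water, Acute and Chronic mice were 21427343, 22423044 and 22225772 in the earlier batch and 20088116, 20241016 and 20811093 in the later batch, lowest in Water mice in both. No 2 libraries of a group and batch agreed within sampling noise (chi-square per degree of freedom 3.9 to 20.6 over 55 pairs).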

How the data were processed

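Amygdala RNA of 28 female mice was sequenced in 2 batches. The submitters' processing notes name FastQC 0.11.8 and Salmon 0.14.1 on GRCm38, and the study's methods name tximport and GENCODE M21. The authors deposited estimated counts per gene, rounded to whole numbers, in 1 table per batch, without normalization or batch removal. Identifiers of the second table are in part from another release, and only shared ones were used. Tables were joined on the Ensembl identifier without its version, and symbols are those of GENCODE M21.

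Genes whose mean count reached 10 were kept. Counts were fitted in edgeR 4.0.16 (R 4.3.3) with TMM factors, batch and group, by the quasi-likelihood test, with p-values adjusted by Benjamini-Hochberg across the kept genes. Normalised counts are CPM times the mean effective library size. Log2 CPM used a prior count of 2. Correlations and marker scores ran in Python 3.11.15 with numpy 2.4.6 and scipy 1.17.1, with permutations within batches. Fits and correlations were tested on simulated data. DESeq2 1.42.0, limma 3.58.1 and ComBat-seq (sva 3.50.0) served as alternatives, beside other normalizations and filters, single batches, a replicate block, GC and length offsets and fits without 1 mouse.

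Groups follow the labels, and each mouse is 1 replicate. The 10 genes, the network lists and the tests were chosen with earlier results of these data known. The rule named all 10 genes, the 2 genes of each network list that had the lowest p against Water, for Acute and for Chronic mice, *Hsf1* and *Hsf2*, and the 5 genes most like *Hspa4* and *Hspa1b*. Total counts of 20004380 to 22569562 per mouse give each gene a counting error that is part of its spread between mice, and intervals from edgeR cover both.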

Additional observations from a re-analysis of the deposited data

Results flagged for a closer look

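Of 60 groups examined, 6 held a mouse far from the others of its group, and chance flags about 1 in 20 groups. Values are log2 CPM with batch means removed. Chronic mouse 1 of the second batch had *Hspa4l* at -0.251, where the other 8 Chronic mice ranged from -0.091 to 0.059, and it had an OPC marker score of -0.14, where the others ranged from -0.016 to 0.109. Water mouse 40 had *Hsp90aa1* at -0.141, below the others at -0.027 to 0.062. Water mouse 43 had an OPC marker score of -0.247, below -0.065 to 0.087. Acute mouse 33 had a pericyte and smooth muscle marker score of 0.320, above -0.098 to 0.113, and an immediate early gene score of -0.523, below -0.0064 to 0.340.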

How the results depend on the processing

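Besides the fits without 1 mouse, counts of chaperone and network genes called, of pairs and of marker lists were within 1.5 times of the reported ones in 83 alternatives. The 2 exceptions were ComBat-seq followed by DESeq2, which called 1 chaperone gene (*Hspa4*) in Chronic mice, and the first batch alone, which gave 3 correlated pairs in place of 12. Without 1 mouse there were 6 to 14 pairs, with 6 without Chronic mouse 1. *Hspa4* in Chronic mice stayed between -0.080 and -0.058 without 1 mouse, with an unadjusted edgeR p under 0.05 in 28 of 28 such fits, and in Acute mice in 18 of 28. Its p in Chronic mice exceeded 0.05 in the first batch alone and with GC and length offsets, with or without the replicate block. In Acute mice it did so in these settings and in the second batch alone (p = 0.210), without a filter on low counts (p = 0.130) and with the block alone (p = 0.0562), and was under 0.05 in 8 of 14. Signs of small differences turned in 16 cases. In Acute mice, the first batch alone gave 0.013 for *Hspa4l*, 0.020 for *Hspa8*, -0.018 for *Hspa1b* and -0.108 for *Dnajb1*, and the second alone gave -0.019 for *Hsp90aa1* and 0.0065 for *Hspb1*. GC and length offsets gave 0.041 for *Hspa4l*, -0.014 for *Hsp90ab1* and -0.0040 for *Dnajb1*, and together with the replicate block 0.046, -0.014 and -0.0037. For *Hspa4l* in Chronic mice the first batch gave 0.011, the offsets 0.018 and the offsets with the block 0.017. For *Hspb1* between Chronic and Acute mice limma-voom gave 0.053. Without 1 mouse, Acute values ranged from -0.0052 to 0.025 for *Hsp90aa1*, -0.0059 to 0.013 for *Hsp90ab1*, -0.0014 to 0.111 for *Hspa1b*, -0.022 to 0.044 for *Dnajb1* and -0.079 to 0.046 for *Hspb1*, and *Hspb1* between Chronic and Acute mice from -0.095 to 0.031. The cause was not tested. Replicate numbers in the second batch did not pair the mice (16 same-number pairs, r from -0.35 to 0.34, and 1 of 17 mice was most like its own number). With the replicate block *Hspa4* in Chronic mice was -0.074 (edgeR adjusted p = 0.265), and 0 of the 10 genes were called. Counting error was largest for *Hspb1*, *Hspa1a* and *Hspa1b* among the 10 genes.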
